A study of Saccharomyces cerevisiae with 8 samples.

Results

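The TORC1, protein kinase A (PKA) and Rim15 nutrient-signalling module was defined as 39 yeast genes, chosen by gene name and known role, and all 39 were among the 5444 genes measured, each by 1 probe set. Transcripts were measured on Affymetrix Yeast Genome 2.0 arrays in the haploid *Saccharomyces cerevisiae* strain CEN.PK113-11C, grown on glucose in minimal medium without histidine. The genotype is given as MATα, mutant for *his3* and *ura3*, with *MAL2-8c* and *SUC2*. The control strain carried the empty plasmid p413 TEF, and the L-UBB+1 strain carried the same plasmid with *UBB+1*, the frameshifted human ubiquitin B of Alzheimer's disease brain, under the constitutive *TEF* promoter at a low level. Both strains were sampled in exponential phase (EX) and at day 6 (D6), with 2 arrays for each of the 4 groups and 8 arrays in all. The paper defines D6 as stationary phase, 6 days after the carbon source ran out. The duplicates are biological according to the methods, but the labels do not say how the cultures were related, so the p-values measure the spread between these samples. Levels are log2 expression values as deposited. They compare 1 gene across arrays and do not rank different genes.

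TORC1 is a kinase complex on the vacuole membrane that is active when amino acids and nitrogen are plentiful. It promotes ribosome synthesis and translation through Sch9, Sfp1 and the phosphatases bound by Tap42. Glucose acts on PKA through Ras and through the receptor Gpr1, both of which feed adenylate cyclase and cyclic AMP. When TORC1 and PKA are inactive, the kinase Rim15 enters the nucleus, phosphorylates the endosulfines Igo1 and Igo2, and with the transcription factors Msn2, Msn4 and Gis1 sets up entry into quiescence. Much of this regulation acts on proteins by phosphorylation and localization, which arrays do not measure. Strains of the CEN.PK family are known to carry a variant of the adenylate cyclase gene that weakens the cyclic AMP response to glucose, and both strains compared here share that background.

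The arrays separated far more by strain label than by phase label. A first set held 10 genes typical of stationary or respiratory growth, among them *SPG1*, *SPG4* and *ADH2*. The log2 of their summed linear levels was 11.77 to 12.23 on the 4 control arrays and 14.88 to 15.20 on the 4 L-UBB+1 arrays. Their mean log2 level was 7.24 to 7.66 on the control arrays and 11.17 to 11.48 on the L-UBB+1 arrays. A second set held 8 genes of fermenting growth, among them *HXT1*, *HXT3* and *PDC1*. The log2 of their summed linear levels was 14.88 to 15.08 on the control arrays and 12.79 to 12.94 on the L-UBB+1 arrays. Their mean log2 level was 11.51 to 11.86 on the control arrays and 9.23 to 9.30 on the L-UBB+1 arrays. Of the first set 8 were called higher in L-UBB+1 at both phases, *SNZ1* was not called (0.16 at EX and 0.16 at D6) and *SNO1* was lower (-1.06, not called, and -1.36, called), and of the second set 7 were called lower at both. By most of these markers, against their labels, the control D6 arrays were like the control EX arrays and the L-UBB+1 EX arrays like the L-UBB+1 D6 arrays, and strain and growth state cannot be told apart in any strain difference given here. Whether 2 of the groups were exchanged could not be settled from the labels, and every group is named as it is labelled. Within the control strain, 7 genes of the first set had lower means at D6 than at EX and 3 higher. Of the second set 5 were higher and 3 lower. An unadjusted limma p below 0.05 was reached by 3 of the first set, all lower at D6. It was also reached by 3 of the second, all higher (27.2% of all genes in either direction). These directions ran against the phase labels. The marker *HXT1* was 1.21 higher in log2 at control D6 than at control EX (limma adjusted p = 0.0389), which was short of a call. Across the members, the SD of the difference between arrays was 0.174 to 0.307 for replicates and 0.756 to 0.903 between the strains. Between the phases of the control strain it was 0.217 to 0.424, above the 0.174 and 0.177 between the control replicates. L-UBB+1 EX array 1 differed from D6 array 2 by an SD of 0.074, and EX array 2 from D6 array 1 by 0.141, both less than the 0.216 and 0.307 between the replicate arrays of those groups. Genes specific to a mating type also differed between the strains, although both are given as MATα. For 6 genes specific to **a** cells, the log2 of the summed linear levels was 12.07 to 12.42 on the control arrays and 10.63 to 10.84 on the L-UBB+1 arrays. Of these 6 genes, 5 were called lower in L-UBB+1 at both phases, with *STE2*, the α-factor receptor gene, at -2.50 and -2.92. *MFA1* was not called. Of 4 genes specific to α cells, *SAG1* was called higher at EX (1.06) and 0 were called by limma at D6, where 3 had an adjusted p below 0.05. Over the 8 arrays *MF(ALPHA)1* ranged from 5.90 to 6.47 and *MF(ALPHA)2* from 5.93 to 6.62. Both stayed below 7.496, the level under which the dimmest 20% of genes lay by mean. *MFA1* was 8.90 to 9.80 on every array, and *STE2* was 9.99 to 10.74 on the control arrays. On the control arrays these levels did not match the given MATα. On the L-UBB+1 arrays *STE2* was lower, but the levels of *MF(ALPHA)1*, *MF(ALPHA)2* and *MFA1* did not match it either. The reason was not tested. The part of the growth-state and mating-type differences between the strains in the results for the module was not tested.

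More members of the module were called higher than lower in the L-UBB+1 strain. A gene was called where its adjusted p (limma, Benjamini-Hochberg over 5444 genes) was below 0.001 and its log2 fold change at least 1 in size. At EX, 13 of the 39 members (33.3%) were called higher and 2 (5.13%) lower, beside 17.2% and 17.1% of all genes. At D6, 11 members (28.2%) were called higher and 3 (7.69%) lower, beside 17.9% and 18.5% of all genes. The median log2 fold change of the members was 0.55 at EX and 0.58 at D6, where that of all genes was 0.003 and -0.007, and 30 members at EX and 32 at D6 lay above 0. The EX counts fell when control EX array 2 or either L-UBB+1 EX array was left out, which lowers the precision for every gene. Whether the fall was particular to the members was not tested. The size of the differences was not above that of other genes, since the median absolute log2 fold change was 0.71 against 0.75 at EX and 0.79 against 0.78 at D6.

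The members called at the 2 phases were largely shared, but D6 is not a separate check of EX. Of all 5444 genes, 0 were called between the phases in either strain (0.0%). *TCO89*, *SLM4*, *TIP41*, *NPR1*, *KSP1*, *IGO1*, *IGO2*, *GIS1*, *CYR1* and *IRA2* were called higher at both, and *PPH22* and *RAS1* lower at both. *TOR2*, *SCH9* and *SFP1* were called at EX alone and *MEH1* and *MSN4* at D6 alone, so that 17 members were called at either phase and 22 at neither. An adjusted p below 0.05 without the fold requirement was reached by 27 members at EX (74.7% of all genes) and by 28 at D6 (76.0% of all genes), and an unadjusted p below 0.05 by 29 and 30 members (76.0% and 77.7% of all genes). The 2 L-UBB+1 arrays lay above both control arrays for 29 members at EX and 29 at D6, and below both for 8 and 5 (44.5% and 43.4% of all genes above, 44.2% and 44.1% below). With both phases joined, all 4 L-UBB+1 arrays lay above all 4 control arrays for 26 members and below for 5 (38.3% and 38.1% of all genes), and 8 members overlapped.

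**Figure D1:**
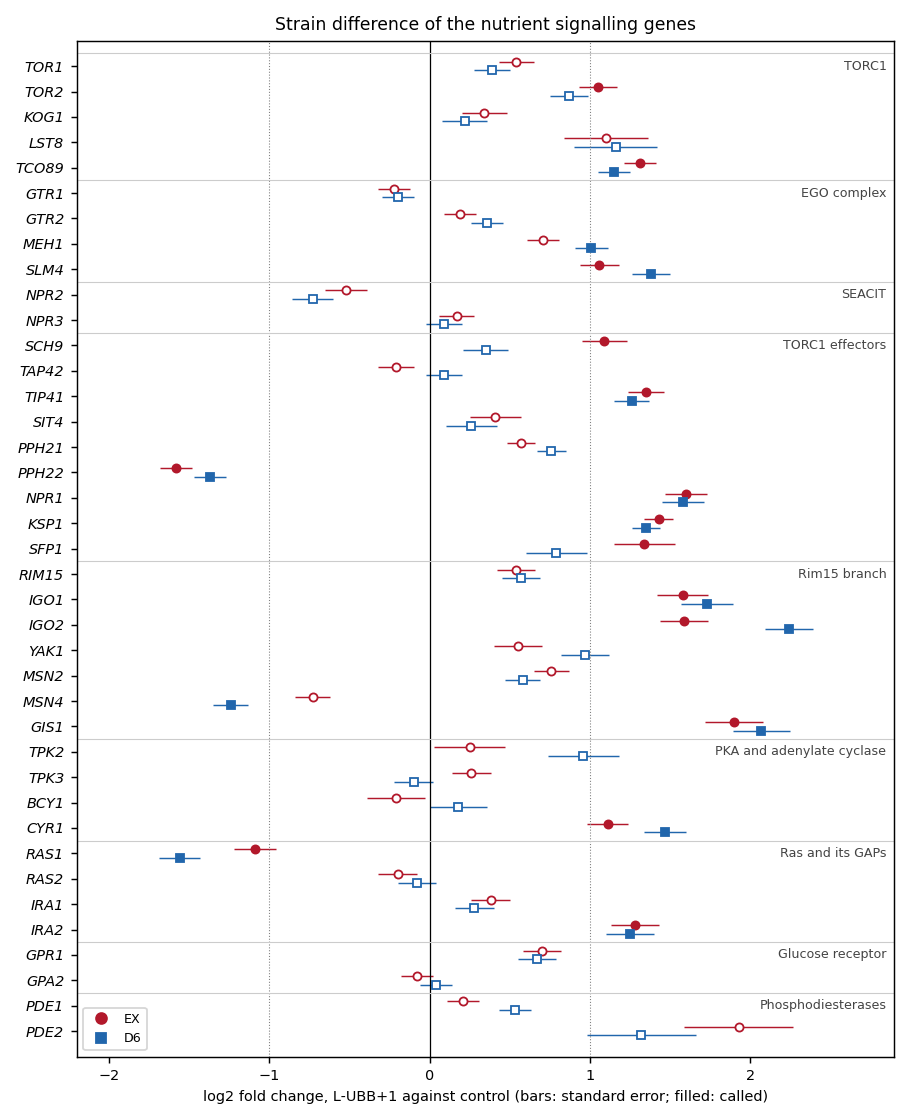
Log2 fold change of each member between the L-UBB+1 and control strains at EX (red circles) and D6 (blue squares), with the standard error as bars and filled symbols for called genes. Most points lie to the right of 0, and PPH22, RAS1 and MSN4 are the members called lower.

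Within TORC1, the transcripts of *TCO89*, a subunit found in TORC1 and not in TORC2, and of the kinase gene *TOR2* rose, and no subunit was called lower. For *TCO89* (YPL180W), the levels were 7.95 and 7.88 in control EX, 8.05 and 7.94 in control D6, 9.25 and 9.19 in L-UBB+1 EX, and 9.04 and 9.25 in L-UBB+1 D6. All 4 L-UBB+1 arrays stood clear of the 4 control arrays. At EX *TCO89* was 2.47-fold higher, a log2 difference of 1.31 (SE 0.10, adjusted p = 2.26e-05), and at D6 2.21-fold higher, a difference of 1.15 (SE 0.10, adjusted p = 4.1e-05). *TOR2* (YKL203C) had log2 levels of 8.38 and 8.40 on the control EX arrays, 8.68 and 8.38 on the control D6 arrays, 9.46 and 9.42 on the L-UBB+1 EX arrays, and 9.41 and 9.40 on the L-UBB+1 D6 arrays. The control D6 array 1 was the highest of the controls and still below every L-UBB+1 array. The *TOR2* strain difference in log2 was 1.05 (SE 0.12, 2.07-fold higher, adjusted p = 0.000107) in exponential phase and 0.87 (SE 0.12, 1.83-fold higher, adjusted p = 0.000274) at day 6. The EX call of *TOR2* was lost after quantile normalization (0.97) and without any 1 of control EX array 1 (1.04), control EX array 2 (1.06) or L-UBB+1 EX array 1 (1.03), and a D6 call was gained without control D6 array 1 (1.03). *TOR1*, which encodes the kinase that works in TORC1 alone, showed smaller values. For *TOR1* (YJR066W), the levels were 7.84 and 7.92 in control EX, 8.11 and 7.94 in control D6, 8.48 and 8.36 in L-UBB+1 EX, and 8.35 and 8.49 in L-UBB+1 D6. The strains did not overlap, although they were closer than for *TOR2*. *TOR1* was 1.45-fold higher in L-UBB+1 at EX, a log2 fold change of 0.54 (SE 0.11, adjusted p = 0.00252), and 1.31-fold higher at D6, a log2 fold change of 0.39 (SE 0.11, adjusted p = 0.0109). Both values of *TOR1* missed the call on size and on adjusted p. *LST8*, a WD-repeat subunit shared by TORC1 and TORC2, passed the fold but not the p. *LST8* (YNL006W) had log2 levels of 8.57 and 8.53 on the control EX arrays, 8.93 and 8.47 on the control D6 arrays, 9.46 and 9.83 on the L-UBB+1 EX arrays, and 10.24 and 9.49 on the L-UBB+1 D6 arrays. The L-UBB+1 arrays, from 9.46 to 10.24, were above the controls but far apart from each other. At EX *LST8* was 2.14-fold higher, a log2 difference of 1.10 (SE 0.26, adjusted p = 0.00643), and at D6 2.24-fold higher, a difference of 1.16 (SE 0.26, adjusted p = 0.00469). Without L-UBB+1 D6 array 2 its D6 value was 1.54 and called. *KOG1*, the raptor homologue that binds substrates, differed by 0.34 in log2 at EX (adjusted p = 0.0595) and 0.22 at D6 (adjusted p = 0.19).

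The EGO complex anchors the Rag GTPases Gtr1 and Gtr2 to the vacuole, where they activate TORC1. The anchors *SLM4* and *MEH1* rose, *SLM4* at both phases and *MEH1* at D6, while neither GTPase gene was called. For *SLM4* (YBR077C), the levels were 9.10 and 8.91 in control EX, 8.74 and 8.77 in control D6, 10.15 and 9.98 in L-UBB+1 EX, and 10.03 and 10.24 in L-UBB+1 D6. The control D6 arrays were the lowest and the strains did not overlap. The *SLM4* strain difference in log2 was 1.06 (SE 0.12, 2.09-fold higher, adjusted p = 0.000128) in exponential phase and 1.38 (SE 0.12, 2.6-fold higher, adjusted p = 3.21e-05) at day 6. *MEH1* (YKR007W) had log2 levels of 8.34 and 8.20 on the control EX arrays, 8.09 and 8.04 on the control D6 arrays, 9.02 and 8.93 on the L-UBB+1 EX arrays, and 9.04 and 9.10 on the L-UBB+1 D6 arrays. Here too the control D6 arrays were the lowest, below the control EX arrays, and the strains did not overlap. *MEH1* was 1.63-fold higher in L-UBB+1 at EX, a log2 fold change of 0.71 (SE 0.10, adjusted p = 0.000318), and 2.01-fold higher at D6, a log2 fold change of 1.01 (SE 0.10, adjusted p = 4.74e-05). The EX call of *SLM4* was lost after quantile normalization (1.00) and without control EX array 2 (0.97) or L-UBB+1 EX array 1 (0.97), and the D6 call of *MEH1* after quantile normalization, without control D6 array 2 and without L-UBB+1 D6 array 2 (0.98 each). *GTR1* differed by -0.22 at EX and -0.20 at D6 (adjusted p = 0.0868 and 0.109) and *GTR2* by 0.19 and 0.36 (adjusted p = 0.116 and 0.0116). Npr2 and Npr3 belong to SEACIT, which switches the Rag GTPases off when amino acids are scarce. Neither was called, and *NPR2* was among the few members with negative values at both phases. For *NPR2* (YEL062W), the levels were 7.77 and 7.73 in control EX, 8.12 and 7.77 in control D6, 7.20 and 7.26 in L-UBB+1 EX, and 7.24 and 7.20 in L-UBB+1 D6. The 4 L-UBB+1 arrays were the lowest of the 8. At EX *NPR2* was 1.43-fold lower, a log2 difference of -0.52 (SE 0.13, adjusted p = 0.00695), and at D6 1.65-fold lower, a difference of -0.73 (SE 0.13, adjusted p = 0.00124). *NPR3* differed by 0.17 and 0.09 (adjusted p = 0.177 and 0.453).

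Of the 9 effectors of TORC1, 6 were called at EX and 4 at D6, and *PPH22* was the one called lower. At EX, 5 were called higher (*SCH9*, *TIP41*, *NPR1*, *KSP1* and *SFP1*, 55.6% beside 17.2% of all genes), and at D6 *TIP41*, *NPR1* and *KSP1* (33.3% beside 17.9%). *NPR1* encodes a kinase that controls amino acid permeases and is restrained by TORC1. *NPR1* (YNL183C) had log2 levels of 8.61 and 8.58 on the control EX arrays, 8.67 and 8.44 on the control D6 arrays, 10.17 and 10.22 on the L-UBB+1 EX arrays, and 10.29 and 9.99 on the L-UBB+1 D6 arrays. The strains formed separate ranges, 8.44 to 8.67 and 9.99 to 10.29. The *NPR1* strain difference in log2 was 1.60 (SE 0.13, 3.04-fold higher, adjusted p = 2.24e-05) in exponential phase and 1.58 (SE 0.13, 2.99-fold higher, adjusted p = 2.35e-05) at day 6. *KSP1* encodes a kinase that acts with PKA to restrain autophagy. For *KSP1* (YHR082C), the levels were 8.70 and 8.69 in control EX, 8.70 and 8.76 in control D6, 10.18 and 10.07 in L-UBB+1 EX, and 10.11 and 10.06 in L-UBB+1 D6. Both phases of a strain read nearly alike, and the strains were well apart. *KSP1* was 2.7-fold higher in L-UBB+1 at EX, a log2 fold change of 1.43 (SE 0.09, adjusted p = 7.16e-06), and 2.55-fold higher at D6, a log2 fold change of 1.35 (SE 0.09, adjusted p = 8.84e-06).

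*TIP41* and *TAP42* encode binding partners, of which Tap42 holds the catalytic subunits of PP2A-type phosphatases under TORC1 control and Tip41 counteracts it. *TIP41* rose at both phases. *TIP41* (YPR040W) had log2 levels of 8.39 and 8.35 on the control EX arrays, 8.48 and 8.34 on the control D6 arrays, 9.77 and 9.67 on the L-UBB+1 EX arrays, and 9.55 and 9.79 on the L-UBB+1 D6 arrays. Every control array was below every L-UBB+1 array. At EX *TIP41* was 2.55-fold higher, a log2 difference of 1.35 (SE 0.11, adjusted p = 2.66e-05), and at D6 2.4-fold higher, a difference of 1.26 (SE 0.11, adjusted p = 3.57e-05). *TAP42* was not called. For *TAP42* (YMR028W), the levels were 8.07 and 7.83 in control EX, 7.78 and 7.71 in control D6, 7.72 and 7.75 in L-UBB+1 EX, and 7.86 and 7.82 in L-UBB+1 D6. The L-UBB+1 arrays lay below both control arrays at EX and above both at D6. Its log2 fold change was -0.21 at EX (SE 0.11, adjusted p = 0.105) and 0.09 at D6 (SE 0.11, adjusted p = 0.449).

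The phosphatase subunits bound by Tap42 did not move as a group. *PPH21* and *PPH22* encode the near-redundant catalytic subunits of PP2A, and *PPH22* fell at both phases. *PPH22* (YDL188C) had log2 levels of 8.81 and 8.83 on the control EX arrays, 8.67 and 8.72 on the control D6 arrays, 7.27 and 7.21 on the L-UBB+1 EX arrays, and 7.43 and 7.22 on the L-UBB+1 D6 arrays. The 4 L-UBB+1 arrays were the low ones, with no overlap. The *PPH22* strain difference in log2 was -1.58 (SE 0.10, 2.99-fold lower, adjusted p = 8.07e-06) in exponential phase and -1.37 (SE 0.10, 2.58-fold lower, adjusted p = 1.42e-05) at day 6. For *PPH21* (YDL134C), the levels were 9.24 and 9.28 in control EX, 8.98 and 9.08 in control D6, 9.80 and 9.85 in L-UBB+1 EX, and 9.79 and 9.79 in L-UBB+1 D6. For this gene the L-UBB+1 arrays were the high ones, again with no overlap. *PPH21* was 1.48-fold higher in L-UBB+1 at EX, a log2 fold change of 0.57 (SE 0.09, adjusted p = 0.000683), and 1.7-fold higher at D6, a log2 fold change of 0.76 (SE 0.09, adjusted p = 0.000132). The log2 fold change of *PPH21* minus that of *PPH22* was 2.15 at EX and 2.13 at D6, a gap that was not itself tested. *SIT4*, the PP2A-like phosphatase of the same branch, had values of 0.41 (adjusted p = 0.0508) and 0.26 (adjusted p = 0.183).

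The growth-promoting effectors *SCH9*, the yeast S6 kinase homologue, and *SFP1*, an activator of ribosomal protein and ribosome biogenesis genes, rose at EX. *SCH9* (YHR205W) had log2 levels of 8.71 and 9.07 on the control EX arrays, 9.43 and 9.69 on the control D6 arrays, 10.03 and 9.92 on the L-UBB+1 EX arrays, and 9.89 and 9.92 on the L-UBB+1 D6 arrays. The control D6 arrays were above the control EX arrays, and so closer to the L-UBB+1 arrays, which were the highest. At EX *SCH9* was 2.13-fold higher, a log2 difference of 1.09 (SE 0.14, adjusted p = 0.000293), and at D6 1.27-fold higher, a difference of 0.35 (SE 0.14, adjusted p = 0.0592). For *SFP1* (YLR403W), the levels were 8.24 and 8.47 in control EX, 8.76 and 8.68 in control D6, 9.87 and 9.52 in L-UBB+1 EX, and 9.27 and 9.76 in L-UBB+1 D6. The control D6 arrays again stood above the control EX arrays and below all L-UBB+1 arrays. The *SFP1* strain difference in log2 was 1.34 (SE 0.19, 2.53-fold higher, adjusted p = 0.000422) in exponential phase and 0.79 (SE 0.19, 1.73-fold higher, adjusted p = 0.00611) at day 6. The difference between the 2 strain differences was -0.74 for *SCH9* (adjusted p = 0.275) and -0.55 for *SFP1* (adjusted p = 0.365), so neither was shown to differ between the phases. The EX call of *SCH9* was lost without control EX array 1 (0.91), L-UBB+1 EX array 1 (1.04) or L-UBB+1 EX array 2 (1.14), and that of *SFP1* without control EX array 1 (1.22), control EX array 2 (1.46) or L-UBB+1 EX array 1 (1.16), and with the replicate number as a block (1.34).

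**Figure D2:**
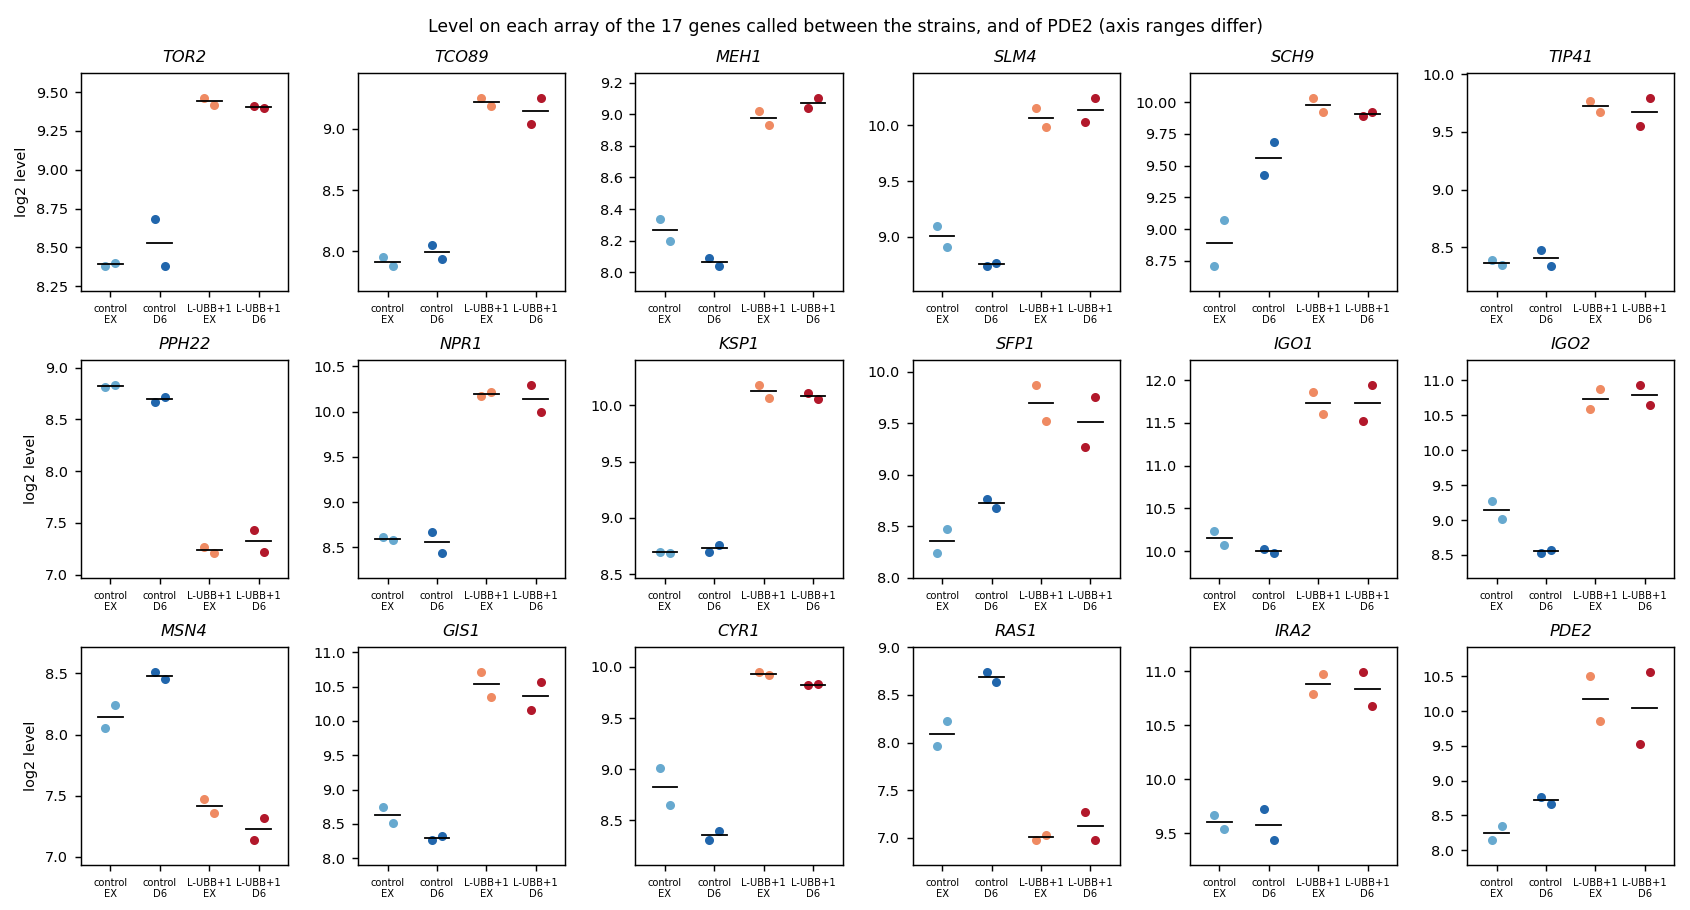
Log2 level on each of the 2 arrays of each group (points) and the group mean (line) for the 17 members called in either strain comparison and for PDE2, with a separate axis range for each gene. The L-UBB+1 arrays lie above the control arrays except for PPH22, MSN4 and RAS1, and the arrays of PDE2 in L-UBB+1 are widely spread.

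In the Rim15 branch, the endosulfine genes *IGO1* and *IGO2* and the transcription factor gene *GIS1* rose at both phases, and *MSN4* fell at D6. The endosulfines inhibit PP2A bound to Cdc55 once Rim15 has phosphorylated them. *IGO1* (YNL157W) had log2 levels of 10.24 and 10.07 on the control EX arrays, 10.02 and 9.98 on the control D6 arrays, 11.86 and 11.60 on the L-UBB+1 EX arrays, and 11.52 and 11.94 on the L-UBB+1 D6 arrays. Control and L-UBB+1 arrays did not overlap, and the latter were higher. *IGO1* was 2.99-fold higher in L-UBB+1 at EX, a log2 fold change of 1.58 (SE 0.16, adjusted p = 7.66e-05), and 3.31-fold higher at D6, a log2 fold change of 1.73 (SE 0.16, adjusted p = 4.56e-05). For *IGO2* (YHR132W-A), the levels were 9.27 and 9.01 in control EX, 8.53 and 8.57 in control D6, 10.59 and 10.87 in L-UBB+1 EX, and 10.93 and 10.64 in L-UBB+1 D6. The control arrays were lower at D6 than at EX, and the L-UBB+1 arrays were the highest at both. At EX *IGO2* was 3.0-fold higher, a log2 difference of 1.59 (SE 0.15, adjusted p = 4.98e-05), and at D6 4.72-fold higher, a difference of 2.24 (SE 0.15, adjusted p = 9.5e-06). The difference of *IGO2* at D6 was the highest of the whole module. The EX call of *IGO1* was lost without control EX array 2 (1.49). Gis1 drives genes with a post-diauxic-shift element and is needed for survival in stationary phase. *GIS1* (YDR096W) had log2 levels of 8.75 and 8.51 on the control EX arrays, 8.27 and 8.33 on the control D6 arrays, 10.71 and 10.35 on the L-UBB+1 EX arrays, and 10.16 and 10.57 on the L-UBB+1 D6 arrays. The strains did not overlap, and the control D6 arrays were the lowest. The *GIS1* strain difference in log2 was 1.90 (SE 0.18, 3.73-fold higher, adjusted p = 4.8e-05) in exponential phase and 2.07 (SE 0.18, 4.19-fold higher, adjusted p = 3.02e-05) at day 6. *RIM15* itself was not called. For *RIM15* (YFL033C), the levels were 7.50 and 7.46 in control EX, 7.30 and 7.47 in control D6, 8.10 and 7.94 in L-UBB+1 EX, and 7.85 and 8.07 in L-UBB+1 D6. The 4 L-UBB+1 arrays, from 7.85 to 8.10, were above the 4 control arrays, from 7.30 to 7.50. *RIM15* was 1.45-fold higher in L-UBB+1 at EX, a log2 fold change of 0.54 (SE 0.12, adjusted p = 0.00417), and 1.49-fold higher at D6, a log2 fold change of 0.57 (SE 0.12, adjusted p = 0.00291).

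*MSN2* and *MSN4* encode related zinc-finger activators that bind the stress response element, and their values had opposite signs. *MSN4* (YKL062W) had log2 levels of 8.05 and 8.24 on the control EX arrays, 8.51 and 8.45 on the control D6 arrays, 7.47 and 7.36 on the L-UBB+1 EX arrays, and 7.14 and 7.32 on the L-UBB+1 D6 arrays. Each L-UBB+1 array was below each control array. At EX *MSN4* was 1.66-fold lower, a log2 difference of -0.73 (SE 0.11, adjusted p = 0.000617), and at D6 2.37-fold lower, a difference of -1.24 (SE 0.11, adjusted p = 3.62e-05). For *MSN2* (YMR037C), the levels were 8.34 and 8.40 in control EX, 8.45 and 8.51 in control D6, 9.26 and 9.01 in L-UBB+1 EX, and 8.99 and 9.14 in L-UBB+1 D6. In this gene the L-UBB+1 arrays were all above the control arrays. The *MSN2* strain difference in log2 was 0.76 (SE 0.11, 1.7-fold higher, adjusted p = 0.000596) in exponential phase and 0.58 (SE 0.11, 1.5-fold higher, adjusted p = 0.00237) at day 6. The log2 fold change of *MSN2* exceeded that of *MSN4* by 1.49 at EX and 1.83 at D6, which was not tested. *YAK1*, a growth-restraining kinase that PKA opposes, was close to the fold threshold at D6. *YAK1* (YJL141C) had log2 levels of 9.82 and 9.47 on the control EX arrays, 9.17 and 9.26 on the control D6 arrays, 10.10 and 10.29 on the L-UBB+1 EX arrays, and 10.31 and 10.06 on the L-UBB+1 D6 arrays. The control arrays were highest at EX, in array 1, and remained below the L-UBB+1 arrays. *YAK1* was 1.47-fold higher in L-UBB+1 at EX, a log2 fold change of 0.55 (SE 0.15, adjusted p = 0.0107), and 1.96-fold higher at D6, a log2 fold change of 0.97 (SE 0.15, adjusted p = 0.000602).

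On the PKA side, the gene of adenylate cyclase, *CYR1*, rose at both phases. For *CYR1* (YJL005W), the levels were 9.01 and 8.65 in control EX, 8.31 and 8.40 in control D6, 9.95 and 9.92 in L-UBB+1 EX, and 9.82 and 9.83 in L-UBB+1 D6. The L-UBB+1 arrays kept within 9.82 to 9.95, above every control array, of which EX array 1 was the highest. At EX *CYR1* was 2.16-fold higher, a log2 difference of 1.11 (SE 0.13, adjusted p = 0.00013), and at D6 2.77-fold higher, a difference of 1.47 (SE 0.13, adjusted p = 2.97e-05). Its EX call was lost without control EX array 2 (0.93), L-UBB+1 EX array 1 (1.09) or L-UBB+1 EX array 2 (1.12). The catalytic subunits *TPK2* and *TPK3* and the regulatory subunit *BCY1*, which holds them inactive without cyclic AMP, were not called. *TPK2* (YPL203W) had log2 levels of 9.30 and 8.97 on the control EX arrays, 8.16 and 8.50 on the control D6 arrays, 9.19 and 9.59 on the L-UBB+1 EX arrays, and 9.52 and 9.07 on the L-UBB+1 D6 arrays. The strains overlapped at EX and not at D6, where the control arrays were low. The *TPK2* strain difference in log2 was 0.25 (SE 0.22, 1.19-fold higher, adjusted p = 0.319) in exponential phase and 0.96 (SE 0.22, 1.95-fold higher, adjusted p = 0.00449) at day 6. For *TPK3* (YKL166C), the levels were 7.49 and 7.71 in control EX, 7.93 and 7.99 in control D6, 7.93 and 7.78 in L-UBB+1 EX, and 7.77 and 7.95 in L-UBB+1 D6. The strains overlapped at D6 and not at EX. *TPK3* was 1.2-fold higher in L-UBB+1 at EX, a log2 fold change of 0.26 (SE 0.12, adjusted p = 0.0806), and 1.07-fold lower at D6, a log2 fold change of -0.10 (SE 0.12, adjusted p = 0.445). *BCY1* had values of -0.21 at EX (adjusted p = 0.303) and 0.18 at D6 (adjusted p = 0.379).

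Ras1 and Ras2 are the GTPases that activate adenylate cyclase, and Ira1 and Ira2 switch them off. *RAS1* fell at both phases and *IRA2* rose at both. *RAS1* (YOR101W) had log2 levels of 7.96 and 8.23 on the control EX arrays, 8.74 and 8.64 on the control D6 arrays, 6.98 and 7.03 on the L-UBB+1 EX arrays, and 7.27 and 6.98 on the L-UBB+1 D6 arrays. The control D6 arrays were the highest and the L-UBB+1 arrays the lowest, with no overlap of the strains. At EX *RAS1* was 2.13-fold lower, a log2 difference of -1.09 (SE 0.13, adjusted p = 0.000201), and at D6 2.95-fold lower, a difference of -1.56 (SE 0.13, adjusted p = 3.02e-05). For *IRA2* (YOL081W), the levels were 9.67 and 9.54 in control EX, 9.72 and 9.44 in control D6, 10.79 and 10.97 in L-UBB+1 EX, and 10.99 and 10.68 in L-UBB+1 D6. Here the order was turned, with every L-UBB+1 array above the controls. The *IRA2* strain difference in log2 was 1.28 (SE 0.15, 2.42-fold higher, adjusted p = 0.000146) in exponential phase and 1.25 (SE 0.15, 2.38-fold higher, adjusted p = 0.000156) at day 6. The EX call of *RAS1* was lost without control EX array 2 (-0.95), L-UBB+1 EX array 1 (-1.06) or L-UBB+1 EX array 2 (-1.12). For *IRA2* the EX call was lost without control EX array 1 (1.34), control EX array 2 (1.21) or L-UBB+1 EX array 2 (1.19), and the D6 call without control D6 array 2 (1.11). Their close relatives were not called. *RAS2* (YNL098C) had log2 levels of 10.11 and 9.96 on the control EX arrays, 9.80 and 9.67 on the control D6 arrays, 9.83 and 9.83 on the L-UBB+1 EX arrays, and 9.52 and 9.80 on the L-UBB+1 D6 arrays. The L-UBB+1 arrays were below both control arrays at EX and overlapped them at D6. *RAS2* was 1.15-fold lower in L-UBB+1 at EX, a log2 fold change of -0.20 (SE 0.12, adjusted p = 0.169), and 1.05-fold lower at D6, a log2 fold change of -0.08 (SE 0.12, adjusted p = 0.585). For *IRA1* (YBR140C), the levels were 8.78 and 8.82 in control EX, 8.89 and 8.80 in control D6, 9.08 and 9.27 in L-UBB+1 EX, and 9.25 and 9.01 in L-UBB+1 D6. No control array reached the L-UBB+1 arrays at either phase. At EX *IRA1* was 1.3-fold higher, a log2 difference of 0.38 (SE 0.12, adjusted p = 0.0201), and at D6 1.21-fold higher, a difference of 0.28 (SE 0.12, adjusted p = 0.0603). *RAS2* is known as the main Ras gene of vegetative growth.

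The receptor gene *GPR1* and its G protein gene *GPA2* were not called, nor were the phosphodiesterase genes *PDE1* and *PDE2*, whose products break down cyclic AMP. *GPR1* differed by 0.70 in log2 at EX (SE 0.12, adjusted p = 0.001) and 0.67 at D6 (SE 0.12, adjusted p = 0.00114), and *GPA2* by -0.08 and 0.04 (adjusted p = 0.501 and 0.748). *PDE2*, the high-affinity enzyme, had the highest estimate of all members at EX with the largest standard error. *PDE2* (YOR360C) had log2 levels of 8.15 and 8.35 on the control EX arrays, 8.77 and 8.67 on the control D6 arrays, 10.51 and 9.85 on the L-UBB+1 EX arrays, and 9.52 and 10.56 on the L-UBB+1 D6 arrays. L-UBB+1 EX array 1 and D6 array 2 were nearly level, as were EX array 2 and D6 array 1, the same pairs of near-alike arrays as over the whole module. The *PDE2* strain difference in log2 was 1.93 (SE 0.34, 3.81-fold higher, adjusted p = 0.00134) in exponential phase and 1.32 (SE 0.34, 2.5-fold higher, adjusted p = 0.00848) at day 6. It missed the call on the adjusted p, and without L-UBB+1 D6 array 1 its D6 value was 1.84 and called. For *PDE1* (YGL248W), the levels were 9.23 and 9.14 in control EX, 8.82 and 8.88 in control D6, 9.36 and 9.43 in L-UBB+1 EX, and 9.32 and 9.45 in L-UBB+1 D6. The control D6 arrays were the lowest and the strains did not overlap. *PDE1* was 1.16-fold higher in L-UBB+1 at EX, a log2 fold change of 0.21 (SE 0.10, adjusted p = 0.079), and 1.45-fold higher at D6, a log2 fold change of 0.53 (SE 0.10, adjusted p = 0.0014). The low-affinity enzyme *PDE1* thus showed the smaller values and the smaller errors of the pair.

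Among 8 pairs of related genes, the estimates of the partners were near each other for *IGO1* and *IGO2* at EX, where the first minus the second was -0.01, and for *TPK2* and *TPK3* at EX (-0.01). At D6 these gaps were -0.51 and 1.07. The gap was -0.51 and -0.48 at EX and D6 for *TOR1* minus *TOR2*, -0.89 and -1.49 for *RAS1* minus *RAS2*, -0.90 and -0.97 for *IRA1* minus *IRA2*, and -1.72 and -0.79 for *PDE1* minus *PDE2*. No gap was tested, and each pair compares changes measured by different probes.

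**Figure D3:**
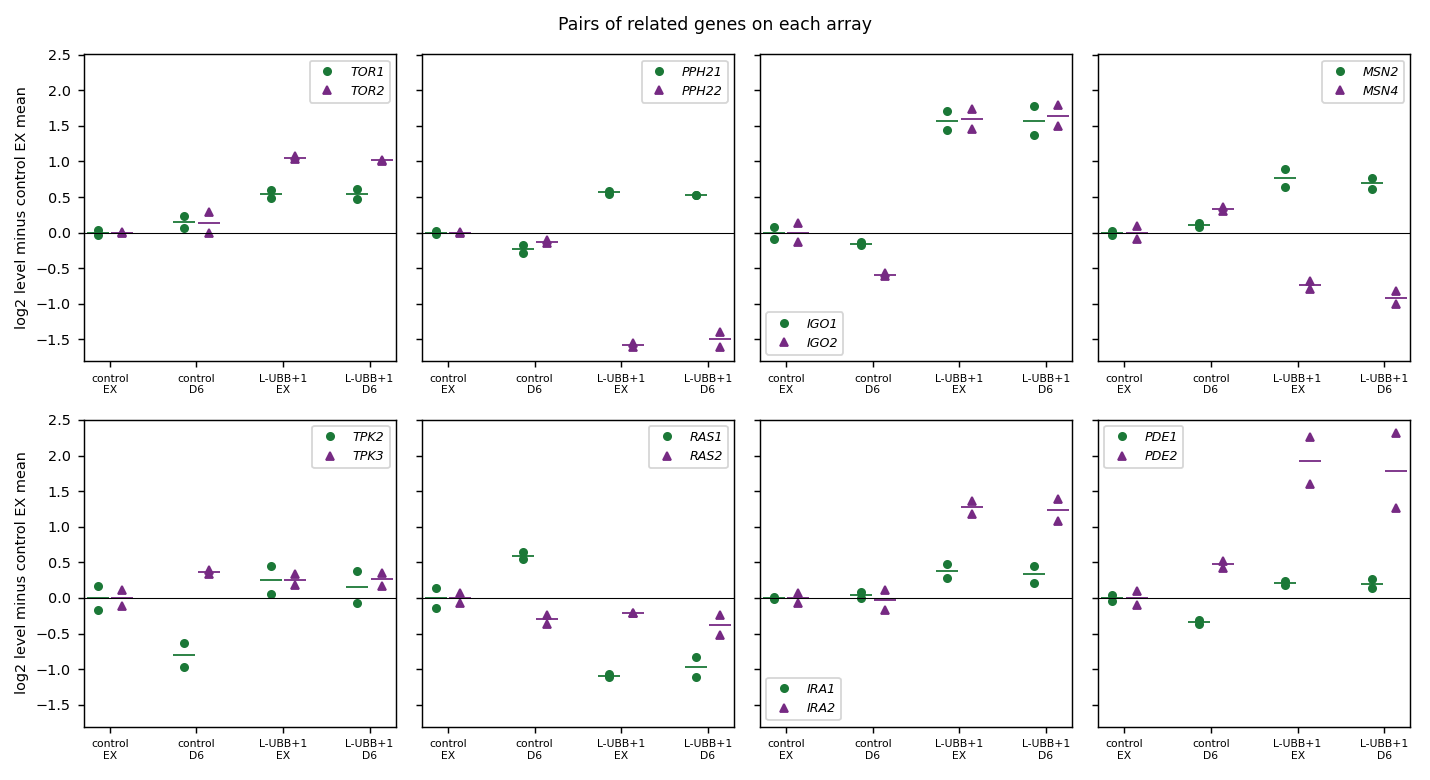
Log2 level of 8 pairs of related genes on each array, minus the mean of the control EX arrays of the same gene (points, with lines for group means). PPH21 and PPH22, MSN2 and MSN4 move to opposite sides of 0 in L-UBB+1, while IGO1 and IGO2 lie together there.

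Between D6 and EX no member was called in either strain by limma. In the control strain, 0 of 39 members were called in either direction (0.0% of all genes) and 0 had an adjusted p below 0.05 (3.51% of all genes), while 12 had an unadjusted p below 0.05, 4 of them higher and 8 lower at D6 (27.2% of all genes). The methods' t-test with the same fold requirement called 0 members in either strain at its unadjusted threshold of 0.05. The lowest adjusted p was 0.0505, for *SCH9*, whose log2 fold change was 0.67 (SE 0.14). *RAS1* followed with 0.59 (SE 0.13, adjusted p = 0.053), and *IGO2* with -0.59 (SE 0.15, adjusted p = 0.0644). The lowest estimate was that of *TPK2* at -0.81 (SE 0.22, adjusted p = 0.0703), and *CYR1* had -0.47 (SE 0.13, adjusted p = 0.0702). The median over the members was -0.03 against 0.001 for all genes. Both D6 arrays lay above both EX arrays for 10 members and below for 16 in the control strain (32.0% and 33.5% of all genes).

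In the L-UBB+1 strain the members ranged from -0.18 to 0.22 between the phases, with a median of -0.04 against 0.003 for all genes. By limma, 0 members were called, 0 had an adjusted p below 0.05 (0.0% of all genes) and 0 an unadjusted p below 0.05 (0.184% of all genes). The fit took all arrays as independent, although deviations of the L-UBB+1 EX and D6 arrays were correlated at -0.855 over all genes. These p-values therefore cannot show that the 2 phases of L-UBB+1 did not differ. The 2 phases did not overlap for 2 members with D6 higher and for 6 with D6 lower (9.99% and 6.7% of all genes). The interaction of strain and phase likewise had 0 members called or with an adjusted p below 0.05 (0.0% of all genes), and 5 with an unadjusted p below 0.05 (15.9% of all genes). Its estimates ranged from -0.74 for *SCH9* to 0.71 for *TPK2*.

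**Figure D4:**
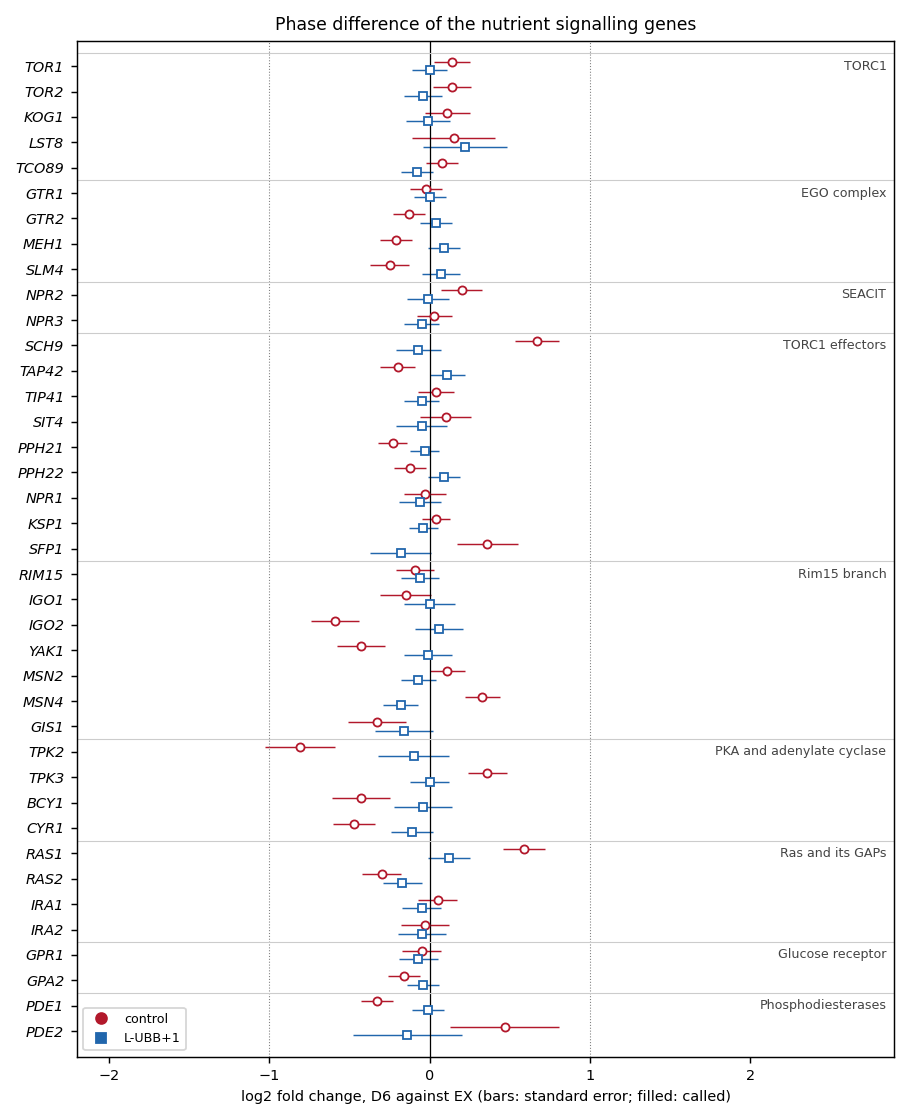
Log2 fold change of each member between D6 and EX in the control strain (red circles) and the L-UBB+1 strain (blue squares), with the standard error as bars. No member is called, and the control points spread from -0.81 to 0.67 while the L-UBB+1 points lie between -0.18 and 0.22.

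Transcription regulators that act below TORC1, Sch9 or PKA were called in 1 direction only. Of 18 such genes, 9 were called higher and 0 lower by limma at EX, and likewise 9 and 0 at D6 (beside 17.2% and 17.9% of all genes higher and 17.1% and 18.5% lower), with medians of 1.17 and 1.08. At EX 18 had an adjusted p below 0.05, 16 of them higher and 2 lower (74.7% of all genes in either direction). At D6 this held for 16, of which 15 were higher and 1 lower (76.0% of all genes). *ADR1*, the activator of genes for ethanol and fatty acid use, which PKA inhibits, had the highest values, 3.40 at EX and 3.0 at D6. *SOK2*, a regulator in the PKA pathway, rose by 2.52 and 1.99. *TOD6*, a repressor of ribosome biogenesis genes that is restrained by Sch9, rose by 2.34 and 1.30, and in the control strain it was 1.06 higher at D6 than at EX (adjusted p = 0.0453), which was short of a call.

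The genes that Msn2, Msn4 and Gis1 act on were called at shares at or below those of all genes, though by the median their changes were larger. Of 24 such targets, 3 rose (12.5%) and 4 fell (16.7%) at EX, beside 17.2% and 17.1% of all genes, with a median of -0.68. At D6, 4 rose (16.7%) and 1 fell (4.17%), beside 17.9% and 18.5%, with a median of 0.53. The median absolute log2 fold change was 1.18 against 0.75 for all genes at EX, and 0.97 against 0.78 at D6. A limma adjusted p below 0.05 was reached by 4 higher and 12 lower at EX (74.7% of all genes in either direction). At D6 these were 12 and 4 (76.0%). The interaction of strain and phase had 14 with an unadjusted p below 0.05, all positive (15.9% of all genes), and 0 with an adjusted p below 0.05 (0.0%). *GRE1*, a hydrophilin gene, rose by 4.91 and 5.08, *SSA3*, a chaperone gene with a post-diauxic-shift element, by 3.64 and 3.16, and the polyubiquitin gene *UBI4* by 1.02 and 1.60. *YGP1*, which encodes a secreted glycoprotein, had the lowest log2 fold changes, -3.83 and -2.89. The hexokinase gene *HXK1* (-2.45) and the glucokinase gene *GLK1* (-2.01) were called lower at EX, and their values of -1.03 and -0.98 at D6 were not called. In the control strain 23 of the 24 targets had lower means at D6 than at EX, with a median of -1.0, and 0 were called by limma and 5 had an adjusted p below 0.05 (3.51% of all genes). These 5 were *PGM2* (-1.95, adjusted p = 0.0310), *CTT1* (-1.67, adjusted p = 0.0473), *HXK1* (-1.45, adjusted p = 0.0461), *GSY2* (-1.0, adjusted p = 0.0435) and *GLK1* (-0.99, adjusted p = 0.0455). *CTT1*, the cytosolic catalase, and the others, enzymes of hexose and glycogen metabolism, were thus lower on the control arrays labelled D6. Both control D6 arrays lay below both control EX arrays for 22 of the 24 targets (33.5% of all genes). The 2 control D6 arrays could be far apart, as for *YGP1* (10.01 and 11.23, beside 11.42 and 11.59 at EX). For *UBI4* they were nearer (10.48 and 10.16, beside 10.94 and 10.85). Targets with shared regulators are not separate observations.

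**Figure D5:**
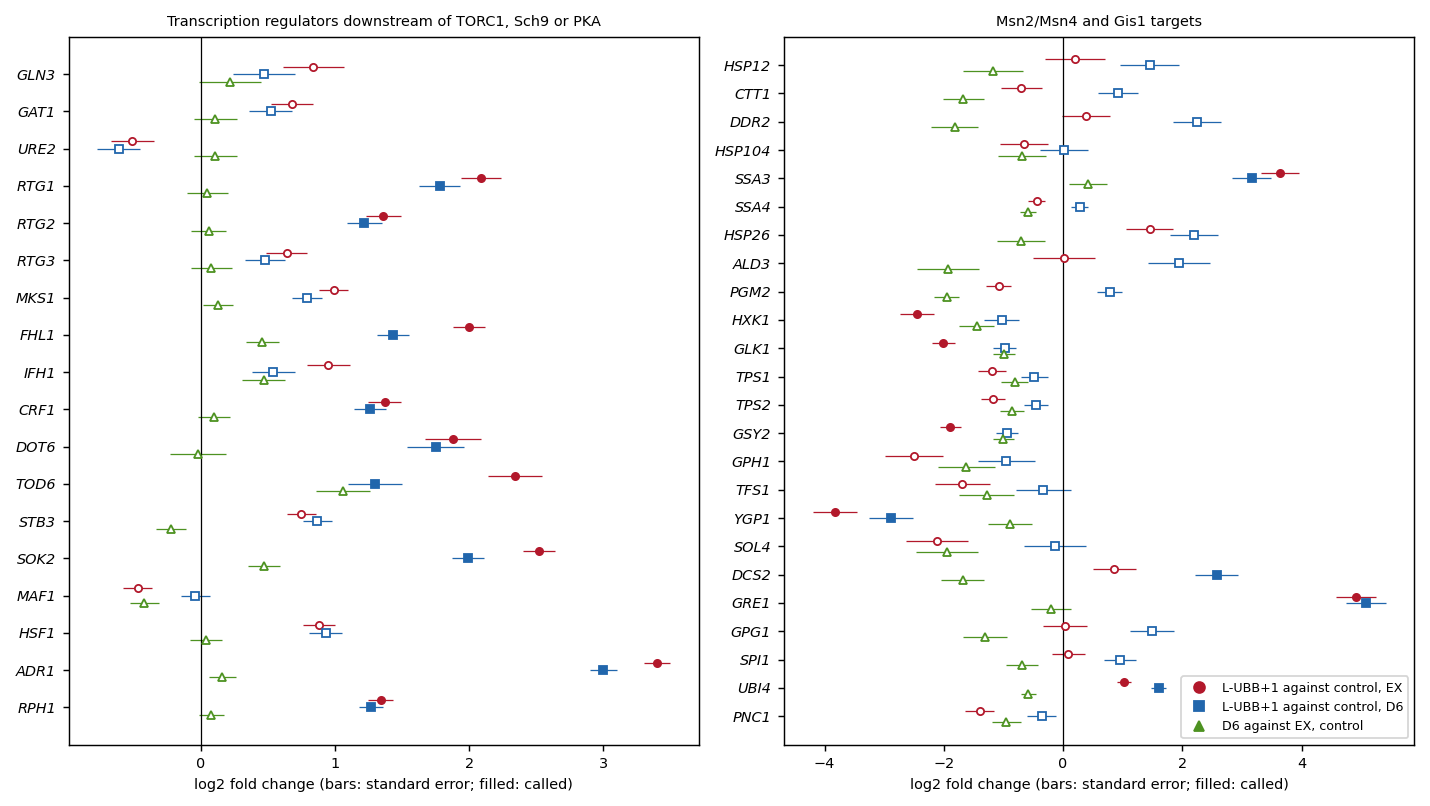
Log2 fold change of 18 transcription regulators (left) and 24 target genes (right) between the strains at EX (red circles) and D6 (blue squares) and between D6 and EX in the control strain (green triangles), with the standard error as bars and filled symbols for called genes. The called regulators all lie above 0, while the targets lie on both sides and their green points lie below 0 for 23 of 24 genes.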

How the data were processed

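Transcripts were measured on 8 Affymetrix Yeast Genome 2.0 arrays, 2 for each of 4 groups of strain and phase. The authors used the R package PIANO to turn the scans into log2 expression values per probe set, which they deposited. The processing notes name R 3.2.3. The methods of normalization and probe summarization were not given in the sources used here. No further normalization was applied, and array medians lay between 8.338 and 8.41.

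Of 5705 probe sets, 5489 had 1 gene in the platform annotation and 216 had none, which were left out. Symbols of 12 were updated through the gene ID. For 43 genes with several probe sets the one with the highest mean was used, which gave 5444 genes. Each gene was fitted to the 4 group means with limma 3.58.1 in R 4.3.3 (4 residual and 3.26 prior degrees of freedom), with Benjamini-Hochberg adjustment over all genes. Calls required an adjusted p below 0.001 and an absolute log2 fold change of 1 or more. The fit was tested on simulated data. The number of arrays, 2 a group, limits the precision.

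The members and the other gene lists were chosen with earlier results of these data known. All members are accounted for, with array values for those called between the strains and for pairs of related genes. Array values of *LST8*, *NPR2*, *TAP42*, *RIM15* and *YAK1* were added after their values were seen. From each other list, up to 3 genes in each direction with the largest called strain difference at EX are named. Exceptions, named after their values were seen, are *CTT1*, *PGM2*, *GSY2*, *RAM1*, *RAM2*, *STE14* and *RIM11*. Alternatives were another normalization, threshold, filter, probe set rule, spread model, set of arrays, a replicate block and the methods' t-test.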

Additional observations from a re-analysis of the deposited data

Results flagged for a closer look

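*TAP42* was the only member whose arrays lay apart between the strains in opposite directions at the 2 phases. The share of all genes with such a reversal was not computed. At EX alone, the 2 L-UBB+1 arrays lay above both control arrays for 44.5% of all genes and below both for 44.2%. The log2 fold change of *TAP42* between L-UBB+1 and control was -0.21 at EX, where both L-UBB+1 arrays were below both control arrays. It was 0.09 at D6, where both were above. The difference between the strain differences was 0.30 (SE 0.15, unadjusted p = 0.0802, limma adjusted p = 0.365) and did not pass the test.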

How the results depend on the processing

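Of the 15 members called at EX and the 14 called at D6, 7 and 11 kept their call under every alternative other than the methods' t-test, and the 7 kept at both phases were *TCO89*, *TIP41*, *PPH22*, *NPR1*, *KSP1*, *IGO2* and *GIS1*. Under all of these alternatives the phase differences and the interaction had 0 members called. The methods' t-test, with Benjamini-Hochberg adjustment at 0.001, called 0 members higher and 0 lower at EX and 0 and 0 at D6, and 0 of all genes. At its unadjusted threshold of 0.05 it called 15 and 2 at EX and 11 and 3 at D6. Leaving out 1 array at a time gave fewer members called higher at EX and moved the D6 counts in both directions. In a choice made after seeing the data, the pairs of near-alike L-UBB+1 arrays were left out in turn. Without L-UBB+1 arrays EX 1 and D6 2, 8 members were higher and 1 lower at EX, and without arrays EX 2 and D6 1, 10 and 1. *PDE2* and *LST8* were called higher at EX when the EX arrays alone were fitted, and at both phases with an adjusted p threshold of 0.05. A lone array in a group is assumed to vary like the other groups.

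Near-zero values changed sign. With 1 array left out, *GPA2* ranged from -0.16 to 0.00 at EX and from -0.02 to 0.10 at D6, *BCY1* at D6 from -0.02 to 0.38 and *RAS2* at D6 from -0.22 to 0.06. At EX, *GPA2* was 0.00 without control EX array 1. At D6 it was -0.03 after quantile normalization, -0.01 without control D6 array 2, and -0.02 without L-UBB+1 D6 array 2, alone or together with EX array 1. *BCY1* at D6 was -0.02 without control D6 array 1, and *RAS2* at D6 was 0.06 without L-UBB+1 D6 array 1, alone or together with EX array 2. The cause was not tested.

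Same-numbered arrays did not deviate together in every pair of groups. Over all genes, the correlation of deviations from the group means was -0.388 between the strains at EX, -0.214 at D6, -0.104 between the phases in control, -0.855 between the phases in L-UBB+1, 0.364 for control EX with L-UBB+1 D6, and 0.244 for control D6 with L-UBB+1 EX. The numbers were therefore not taken to pair the samples. With the replicate block, 12 members were higher and 2 lower at EX, where the call of *SFP1* was lost, and 11 and 3 at D6. With the numbers crossed between the strains, chosen after seeing the data, these counts were 14 and 2, and 11 and 3. Counts of all genes in the block fits are not given beside them.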

Other observations

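Genes that act beside the module were also measured, from lists chosen with earlier results known. Their counts stand beside 17.2% of all genes higher and 17.1% lower in exponential phase, and 17.9% and 18.5% at D6, and nothing is read from counts near these shares. Among 10 other regulators of TORC1, 3 rose (30.0%) and 1 fell (10.0%) at EX by limma's call, and 1 and 1 at D6 (10.0% each), with medians of 0.29 and 0.22. *LST4* and *LST7*, whose products form a complex that acts on Gtr2, had log2 fold changes at EX of 1.55 and 1.08, and *PIB2*, an activator of TORC1 on the vacuole, of 1.06. *SEC13*, shared by the SEA complex, the COPII coat and the nuclear pore, had -1.04 at EX and -1.10 at D6. Of 11 genes of TORC2 and its Ypk kinase branch, 4 were called higher at each phase (36.4%), and 0 lower at EX and 1 at D6 (9.09%), with *PKH2*, an activating kinase of that branch, at 2.37 and 2.46, the TORC2 subunit gene *AVO1* at 1.93 and 1.76, and *SLM1* at 1.70 and 1.74. Among 10 regulatory subunits of PP2A-type phosphatases, the Sit4 partner genes *SAP155* and *SAP4* changed in opposite directions, with 2.03 and 2.11 for *SAP155* and -1.61 and -1.38 for *SAP4*, and *RTS1*, a PP2A subunit gene, was at 1.11, called, and 0.99, not called.

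Of 13 partners of Ras and PKA measured, 2 rose (15.4%) and 5 fell (38.5%) at EX, and 2 (15.4%) and 4 (30.8%) at D6, with medians of 0.29 and -0.08, and the difference between the directions was not tested. *SRV2*, which encodes the cyclase-associated protein, had -2.03 and -1.90, and *ASC1*, a ribosome-bound protein that also binds adenylate cyclase, -1.64 and -1.79. *RCE1* (-1.45 and -1.32), *RAM2* and *STE14*, for enzymes that process the C-terminal end of Ras proteins, were all called lower at EX. *RAM1*, for the partner subunit of Ram2, was not called (-0.28 and -0.33). *SOK1*, a suppressor of PKA loss at high dosage, rose by 1.88 and 1.41, and *ERF2*, for the palmitoyltransferase of Ras2, rose by 1.51 and 1.56. Of 11 stress kinase genes and inputs to Rim15, 2 were called higher (18.2%) and 1 lower (9.09%) at each phase. The 4 genes of the GSK-3 family were *MRK1* at 2.10 and 2.58 and *MCK1* at -1.07 and -1.08, all called, *YGK3* at 1.13, called, and 0.71, not called, and *RIM11* at 0.40 and 0.75, not called.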
